A study of Mus musculus with 3 samples.

Results

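Transcript levels were compared between mouse embryonic stem cells kept for 6 h in cycloheximide and cells kept for the same 6 h in its solvent, ethanol. The comparison rests on 1 single-cell library per side. Cells were the barcodes with at least 15000 unique molecular identifiers (UMIs, each marking 1 captured transcript) of which 1 to 20% came from mitochondrially encoded genes. That rule kept 4741 of the 6480 cells that it keeps over all 3 libraries of the series, 2187 in the control and 2554 in the cycloheximide library. The UMIs of these cells were summed for each gene and scaled by the summed total to CPM, the usual depth-scaled count unit, and a gene was described when its mean over both libraries reached 10 CPM. A single library per group allows no test. The intervals given below are exact and cover counting error only, and no statement here speaks for the spread between cultures.

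The study exposed E14 embryonic stem cells (strain 129/Ola) to cycloheximide and read single-cell transcriptomes by droplet capture of the 3′ end of polyadenylated RNA. Both groups grew on gelatin in medium with serum and LIF and were treated 24 h after seeding, then frozen before capture. The treated group received 250 µg/mL cycloheximide in 0.007% ethanol for 6 h, the control the same share of ethanol for 6 h, so the exposure time was matched. A further library, exposed to cycloheximide for 3 h, has no ethanol library of its own duration and is used here only where stated. No label names separate cultures, and both groups come from 1 line, so these values describe E14 cells only.

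Cycloheximide binds the large ribosomal subunit and stops translation elongation. As background, transcripts whose decay depends on translation can then outlast those that decay without it, transcription factors and repressors with short-lived proteins are lost first, and early response genes are a classical class of transcripts that accumulate when their labile repressors are not remade. In embryonic stem cells LIF acts through STAT3 and autocrine FGF acts through ERK, and both pathways write their activity into short-lived transcripts of feedback inhibitors.

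The kept cells held 111447486 UMIs in the control and 140321458 in the cycloheximide library, 87.3% and 92.9% of all UMIs of their libraries, with medians of 43160 and 46200 UMIs and 6038 and 6631 genes per cell. Mitochondrially encoded genes took 4.57% of the UMIs of control cells and 2.94% at 6 h, and the 1% limit left out 62 control barcodes against 8 at 6 h. Both libraries carried the embryonic stem cell label in their markers: the 8 markers (Pou5f1, Sox2, Nanog, Zfp42, Esrrb, Dppa5a, Utf1 and Tdgf1) summed to 7067 CPM in the control and 7170.3 CPM at 6 h and none was at 0. The sum is mostly Dppa5a: the other 7 markers summed to 2296 and 1696 CPM, and 6 of the 8 had a log2 ratio below 0. Markers of other cell types were low in both. The 7 fibroblast markers summed to 2.48 and 1.29 CPM, with Col3a1, Postn and Lum at 0 in both libraries, the 5 primitive endoderm markers to 6.999 and 7.84 CPM, the 4 mesoderm markers to 4.05 and 6.81 CPM, the 4 neural markers to 25.9 and 26.9 CPM and the 4 trophoblast markers to 0.691 and 1.48 CPM with Elf5 at 0. The 5 markers of 2-cell-like cells summed to 0.583 CPM in the control and all 5 were at 0 at 6 h. The libraries shared 3 cell barcodes, against 0.822 given by their list sizes.

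Of the 7556 genes above the floor, 639 were at least 2-fold higher in the cycloheximide library (8.46%) and 188 at least 2-fold lower (2.49%). These 2 shares are the background for every gene group below. The median gene stood at a log2 ratio of 0.16, with quartiles of -0.16 and 0.52, and 88 genes were at least 4-fold higher against 26 at least 4-fold lower. The split depends on the scaling. TMM factors rescale the libraries by a trimmed mean of gene ratios, here taken over the unfiltered gene list with no floor. They lower every log2 ratio by 0.28 and do not centre the genes above the floor, whose median becomes -0.12. With them 346 genes are higher (4.58%) and 400 lower (5.29%), so that 46.4% of the 2-fold differences are upward in place of 77.3%. Mean UMIs per cell raise every ratio by 0.11 and give 826 higher (10.9%) and 145 lower (1.92%), 85.1% of them upward. A gene or list whose log2 ratio lies between -0.11 and 0.28 therefore changes sign with the scaling, and the order of genes and lists does not change. A higher gene needs a log2 ratio of at least 1.28 to stay past 2-fold with TMM factors, and a lower gene one of at most -1.11 to stay so by UMIs per cell. TMM counts of list members are given below where they differ most from the CPM counts. The floor is set on the mean, so a gene can pass it through 1 library alone, where it had to be high. With 10 CPM required in both libraries, a rule added after the data were seen, 6929 genes remain, of which 414 were higher (5.97%) and 123 lower (1.78%). Counting error is small beside these shifts: the median width of the 95% interval was 0.12 on the log2 scale, and the interval lay wholly past 2-fold for 528 of the 639 genes and 160 of the 188.

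**Figure D1:**
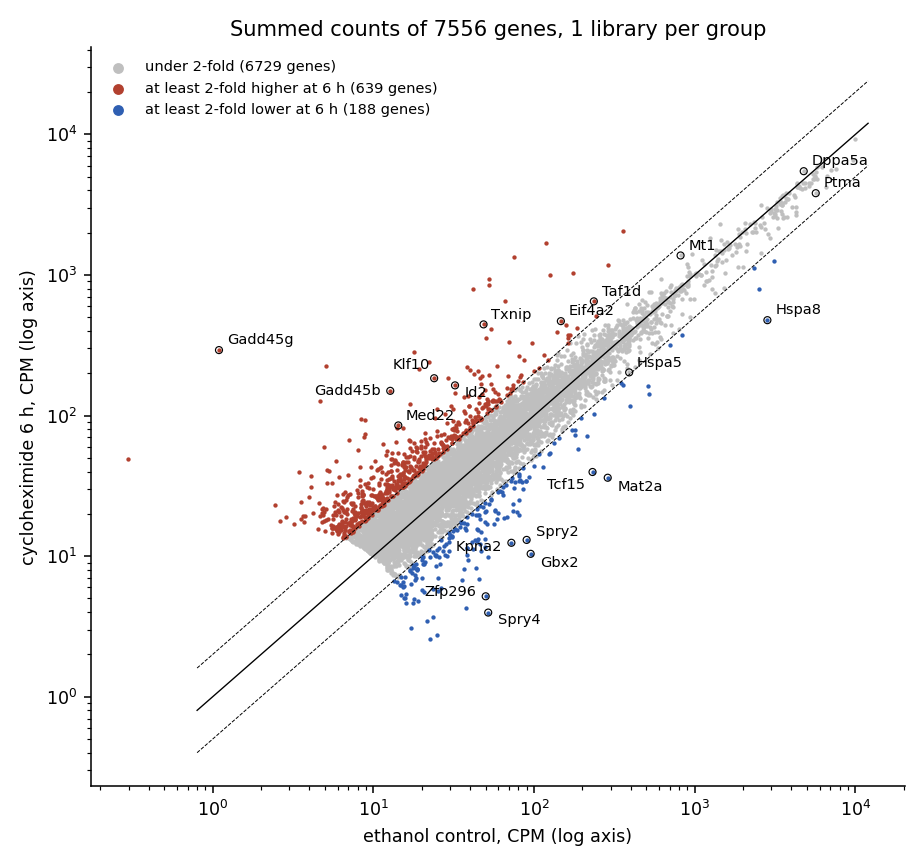
Level of each of 7556 genes in the control (horizontal, CPM, log axis) and after 6 h of cycloheximide (vertical, CPM, log axis), 1 library each; the solid line marks equal levels, the dashed lines 2-fold, red and blue genes lie past them. The 639 higher genes gather at low control levels, with Gadd45g farthest out at 1.09 against 292 CPM, while Hspa8 is the most abundant of the labelled genes below the lower line.

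Histones and noncoding snoRNA host genes, 67 genes above the floor, accounted for 43 of the 639 and 5 of the 188, and they are left aside from here on. Among the other 7275 named genes with a nuclear origin, 552 were at least 2-fold higher and 173 at least 2-fold lower, with a median log2 ratio of 0.15. Unnamed gene models added 44 and 4 of 201. Classes of the annotation were counted with the histones and snoRNA hosts still included. Noncoding classes were more often past 2-fold than the 7440 protein-coding genes (603 higher, 177 lower). Of 49 lincRNAs 12 were higher and 5 lower, and of 37 processed transcripts, a class that holds many of the snoRNA hosts, 18 and 5. The contrast without histones and hosts was not computed.

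The highest ratio belonged to Gadd45g (chr13:51846678-51848468 in GRCm38), a small stress- and differentiation-inducible protein that binds and activates upstream kinases of p38 and JNK. Its level was 1.09 CPM in the control (122 UMIs) and 292 CPM after cycloheximide, which is a log2 ratio of 8.05 (95% interval 7.80 to 8.33). Its paralogs stood at 12.7 and 149.9 CPM (Gadd45b, log2 ratio 3.56, 95% interval 3.48 to 3.64) and at 38.9 and 138 CPM (Gadd45a, 1.83). All 3 Gadd45 genes were thus at least 2-fold higher, and Gadd45g passed the floor through the cycloheximide library alone. Txnip, which binds thioredoxin and restrains glucose uptake, stood at 48.5 CPM in the control and 445 CPM at 6 h (log2 ratio 3.20, 95% interval 3.16 to 3.24). Klf10, a Krüppel-like repressor induced by TGF-beta, stood at 23.9 and 184 CPM (2.95), and Id2, which sequesters basic helix-loop-helix factors, at 32.2 and 164 CPM (2.35). Of the 15 highest ratios (mean level 20 CPM or more), several others belonged to transcriptional regulators. The corepressor Runx1t1 was at 4.06 and 37.3 CPM (3.20), the zinc finger factor Zic5 at 5.11 and 40.98 CPM (3.00), the NF-kappaB subunit Relb at 6.91 and 37.5 CPM (2.44) and the Mediator subunit Med22 at 14.3 and 85.1 CPM (2.57). The rest had other roles. The monocarboxylate transporter family member Slc16a6 was at 8.87 and 73.5 CPM (3.05), the Ras association gene Rassf1 at 16.8 and 121 CPM (2.85), the small GTPase Arf2 at 6.11 and 36.8 CPM (2.59), the tRNA isopentenyl transferase Trit1 at 11.5 and 63.2 CPM (2.46), the lysosomal peptide and histidine transporter Slc15a4 at 8.30 and 42.9 CPM (2.37) and the lincRNA Eprn at 14.1 and 81.5 CPM (2.53). All 15 kept a log2 ratio above 2 with TMM factors. Like Gadd45g, the genes Runx1t1, Zic5, Relb, Slc16a6, Arf2 and Slc15a4 passed the floor through the cycloheximide library alone, where they had to be high.

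The 15 lowest ratios included feedback inhibitors and targets of growth factor and cytokine signalling. Of these 15, Spry4, Zfp296, Inhbb, Fos, Myc, Dusp6 and Prr13 passed the floor through the control alone, where they had to be high. Spry4 and Spry2, Sprouty inhibitors of receptor tyrosine kinase signalling, stood at 51.9 and 89.98 CPM in the control and 3.97 and 13.05 CPM at 6 h, log2 ratios of -3.71 (95% interval -3.84 to -3.58) and -2.79. Dusp6, the cytoplasmic phosphatase of ERK, was at 36.6 and 8.11 CPM (-2.18), and Socs3, the feedback inhibitor of STAT3 signalling, at 49.9 and 11.6 CPM (-2.10). The homeobox gene Gbx2, a STAT3 target in these cells, was at 95.3 and 10.4 CPM (-3.20), the AP-1 subunit Fos at 45.4 and 6.93 CPM (-2.71) and Myc at 35.8 and 6.78 CPM (-2.40). Transcription factors of the stem cell state were among the lowest too. Zfp296 stood at 50.04 and 5.18 CPM (-3.27) and Tcf15, which marks cells primed for differentiation, at 231 and 39.7 CPM (-2.54). The activin and inhibin subunit gene Inhbb was at 37.8 and 4.30 CPM (-3.13). Genes outside these groups completed the set. The S-adenosylmethionine (SAM) synthetase Mat2a was at 288 and 36.1 CPM (-2.99) and the importin Kpna2 at 72.3 and 12.4 CPM (-2.54). The constitutive cytosolic chaperone Hspa8 was at 2835 and 477 CPM (-2.57, 95% interval -2.58 to -2.56). The pseudokinase Trib3 was at 46.9 and 10.9 CPM (-2.10) and Prr13 at 51.8 and 9.80 CPM (-2.40).

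**Figure D2:**
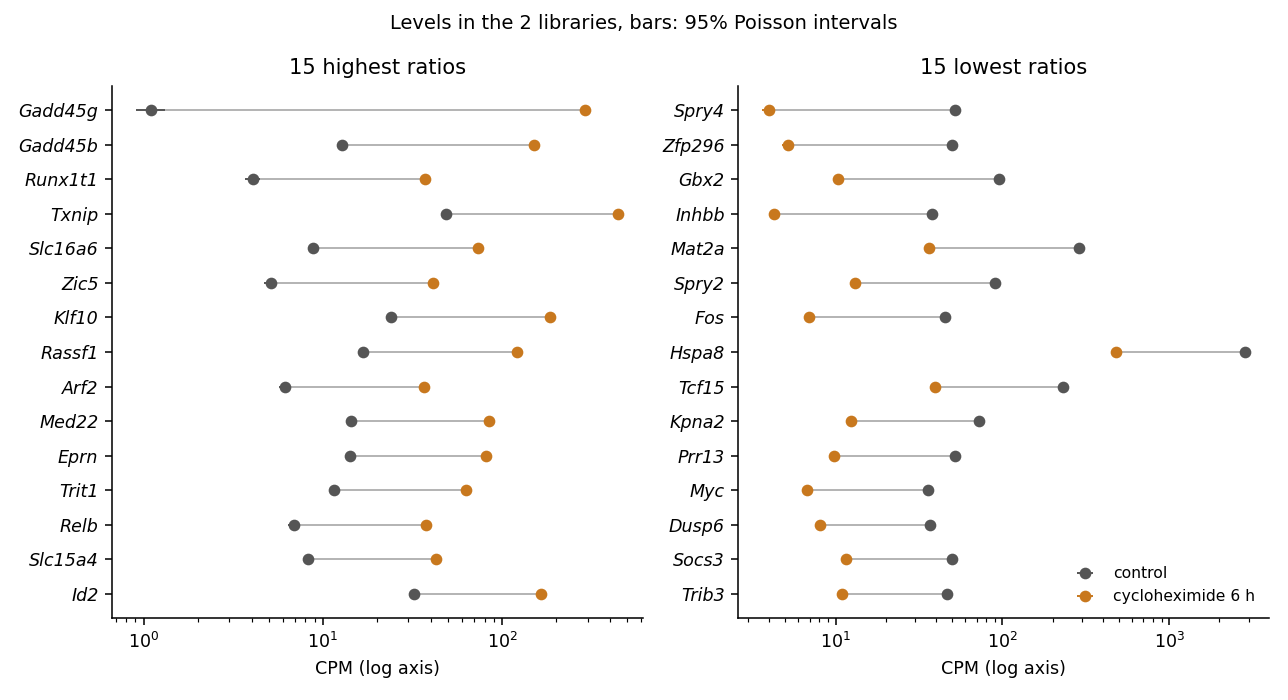
Level in each library (CPM, log axis) of the 15 genes with the highest and the 15 with the lowest ratio; grey points are the control, orange points cycloheximide for 6 h, bars 95% exact Poisson intervals of the counts, mostly narrower than the points. Gadd45g spans 1.09 to 292 CPM, and Hspa8 stands apart on the right by its level, 2835 against 477 CPM.

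Ratios of summed counts do not say whether all cells or a few carry a difference, so each cell was thinned to 15000 UMIs, which left out no cell. Gadd45g had a UMI in 1.65% of control cells and 77.5% of cycloheximide cells (3.38% and 89.3% without thinning), and the cells spread from 0 to more than 10 UMIs. Txnip had a median of 0 UMIs in control cells and 7 in cycloheximide cells, and the share of cells with a UMI was 47.8% and 99.4% (81.2% and 99.96% unthinned). Klf10 was seen in 29.4% and 91.2% of cells (61.7% and 99.5% unthinned). These 3 higher genes were thus found in most cycloheximide cells, which did not hold for all of the 15 highest. After thinning, Runx1t1 had a UMI in 39.9% and Relb in 38.1% of cycloheximide cells (71.6% and 69.7% unthinned), while Med22 had one in 72.4%. Of the lower genes, Hspa8 and Mat2a were low in most cycloheximide cells. Hspa8 had a median of 42 UMIs per control cell and 7 per cycloheximide cell, and 99.9% of cycloheximide cells lay below the 10th percentile of control cells. Mat2a had a UMI in 97.9% of control cells and 40.99% at 6 h (99.9% and 76.2% unthinned), and 86.9% of cycloheximide cells lay below the 10th percentile of control cells. Gbx2 had a UMI in 69.5% and 14.8% of cells (91.3% and 38.02% unthinned). Its 10th percentile in control cells was 0, so no cell could lie below it. Barcodes with 10 to 100 UMIs, which hold free RNA, carried the same transcripts: Gadd45g was at 2.22 and 246 CPM there, Txnip at 70.6 and 417 CPM and Hspa8 at 2623 and 414 CPM. How many of a cell's UMIs came from free RNA was not tested. With 10% of each library subtracted in the proportions of those barcodes, Gadd45g, Txnip and Hspa8 had log2 ratios of 8.26, 3.28 and -2.56.

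**Figure D3:**
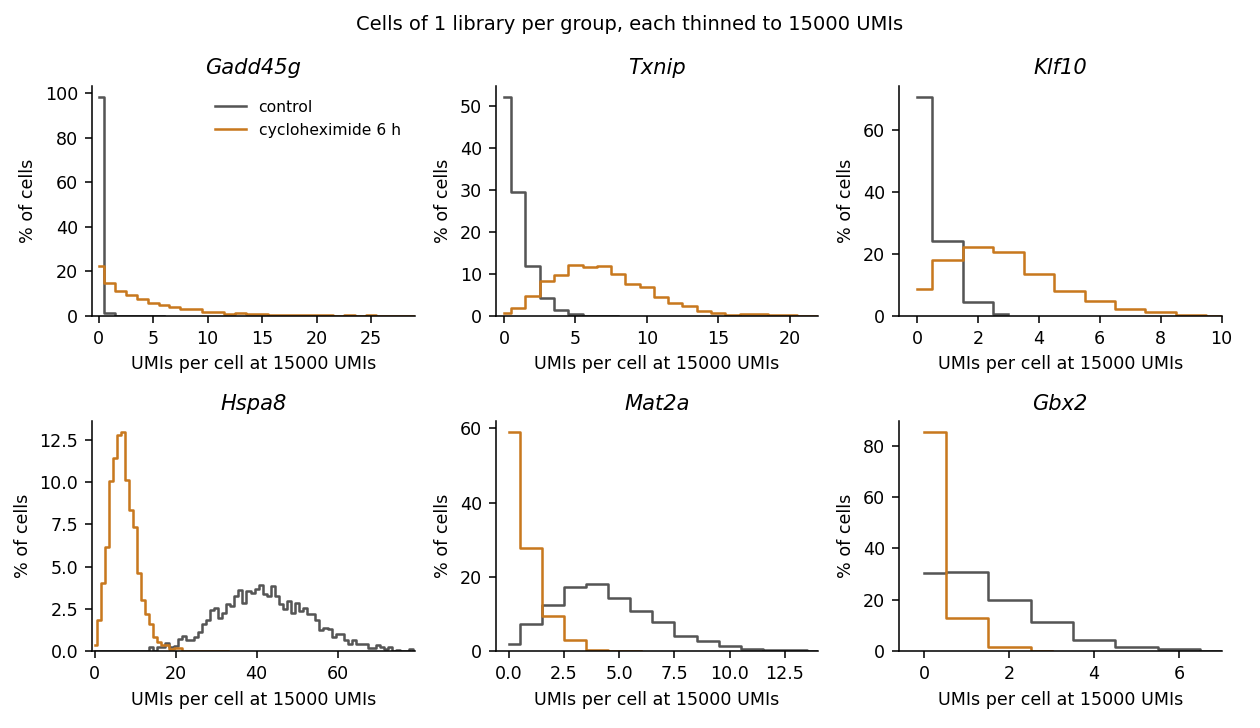
Share of cells (vertical, %) by UMIs of 6 genes per cell after thinning each cell to 15000 UMIs (horizontal), 2187 control cells in grey and 2554 cycloheximide cells in orange, 1 library each. For Gadd45g, Txnip and Klf10 the orange curves reach far to the right of the grey ones, and for Hspa8 the curves hardly overlap.

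In CPM rather than in ratio, the differences added up to 11.6% of all UMIs. Mitochondrially encoded genes, which include larger losses and are described further on, and unnamed gene models are left out of the gains and losses that follow. The largest gains were of abundant transcripts with modest ratios: the stem cell gene Dppa5a (4771 and 5475 CPM, log2 ratio 0.20), the metallothionein Mt1 (817 and 1377 CPM, 0.75), the nuclear RNA Malat1 (2581 and 3121 CPM, 0.27) and the splicing factor Srsf3 (966 and 1416 CPM, 0.55). With TMM factors Dppa5a (-0.08) and Malat1 (-0.01) lay on the other side of 0. Taf1d, a subunit of the RNA polymerase I selectivity factor, was at 236 and 649 CPM (1.46), Eif4a2, a helicase of translation initiation, at 147 and 469.6 CPM (1.68), and Nop56, a core protein of box C/D snoRNPs, at 381 and 739 CPM (0.95). The splicing regulator Rbm39 (0.60), the initiation factor Eif1 (0.28) and Txnip completed the set of 10. The 10 largest losses were Hspa8, the histone chaperone Ptma (5669 and 3818 CPM, -0.57), the chaperone Hsp90ab1 (6628 and 5095 CPM, -0.38) and 7 ribosomal protein genes, Rpl37, Rps29, Rpl36, Rpl39, Rps27, Rps21 and Rps15a, with log2 ratios between -0.69 (Rps27) and -0.40 (Rps15a).

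Gene lists, chosen with earlier results of these data known, are described next by the number of members past 2-fold and by their median, against 8.46% higher, 2.49% lower and a median of 0.16 over all genes. Chaperones of the cytosol came first. Of 28 heat shock chaperone genes 21 were above the floor, 0 were at least 2-fold higher and 2 at least 2-fold lower (6 with TMM factors), and the median log2 ratio was -0.28. The lower ones were Hspa8 and its J-domain partner Dnajb1 (74.8 and 30.4 CPM, -1.30). The mitochondrial chaperonin Hspd1 stood at 1522 and 813 CPM (-0.90), the inducible Hsp90aa1 at 5584 and 5093 CPM (-0.13) and the highest member, Hspa14, a ribosome-associated Hsp70, at 174 and 279.6 CPM (0.68). Together the list held 23439 CPM in the control and 17323 CPM at 6 h. The 8 subunits of the TRiC chaperonin, which folds actin and tubulin, had none past 2-fold and a median of 0.02, from -0.42 (Cct2) to 0.16 (Cct4), with the sign of the median depending on the scaling.

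Most genes of protein folding in the endoplasmic reticulum had ratios below 0, few of them past 2-fold. Of 20 genes 19 were above the floor, 2 of them through 1 library alone, and 15 lay below 0. By CPM 2 were at least 2-fold lower and 1 higher, with TMM factors 6 and 1. The list had a median of -0.56 by CPM, -0.84 with TMM factors and -0.45 by UMIs per cell. Xbp1, the transcription factor of the unfolded protein response, stood at 25.4 and 5.68 CPM (-2.16, 95% interval -2.27 to -2.05) and passed the floor through the control alone, and Herpud1, a membrane component of the degradation machinery, at 29.5 and 12.6 CPM (-1.23). The luminal Hsp70 Hspa5 (BiP) was at 391 and 203 CPM (-0.95), its nucleotide exchange factor Hyou1 at 23.1 and 12.2 CPM (-0.92), the luminal Hsp90, Hsp90b1, at 583 and 334 CPM (-0.81) and the lectin-like chaperone Calr at 606 and 462 CPM (-0.39). Selenos, a membrane selenoprotein of the same machinery, was the exception, at 49.7 and 152 CPM (1.62). The promoters of Hspa5 and Hsp90b1 are shown because the luminal chaperones share a known element, the ER stress response element. They run from 250 bases before to 50 bases after the RefSeq start in GRCm38.p6, 5′ to 3′ on the gene's strand, and capitals mark matches, on either strand, to CCAAT and CCACG with 9 bases of any kind between them. The Hspa5 promoter lies at chr2:34771840-34772139 on the plus strand and the match begins at -65 from the start. The Hsp90b1 promoter lies at chr10:86705395-86705694 on the minus strand and holds matches at -212 and -107.
Hspa5 promoter: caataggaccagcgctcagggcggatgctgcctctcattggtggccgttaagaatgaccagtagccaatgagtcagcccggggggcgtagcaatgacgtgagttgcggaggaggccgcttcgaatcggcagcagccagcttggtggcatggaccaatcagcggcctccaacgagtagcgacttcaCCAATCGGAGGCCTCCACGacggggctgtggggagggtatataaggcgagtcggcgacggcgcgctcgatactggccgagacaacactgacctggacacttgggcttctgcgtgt
Hsp90b1 promoter: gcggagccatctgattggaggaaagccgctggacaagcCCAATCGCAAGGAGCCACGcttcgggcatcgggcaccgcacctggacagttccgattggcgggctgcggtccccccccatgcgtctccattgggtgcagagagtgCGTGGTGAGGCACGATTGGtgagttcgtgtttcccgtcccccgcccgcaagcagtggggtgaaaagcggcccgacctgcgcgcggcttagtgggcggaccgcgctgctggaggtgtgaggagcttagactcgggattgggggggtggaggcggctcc
The element was in 12 of the 6044 genes above the floor with a RefSeq promoter (0.199%) and in 8 of the 17 listed genes with one (Calr, Canx, Creld2, Dnajc3, Hsp90b1, Hspa5, Pdia6 and Syvn1). The median log2 ratio was -0.46 for the listed genes with the element and -0.56 for those without, and over all 6044 genes -0.42 for the 12 with it and 0.16 for the rest. The 12 include the 8 listed genes, so their median is not separate from the low ratios of the list. A match is a description of the sequence only.

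Genes of the integrated stress response, most of them targets of the factor ATF4, went both ways. Of 22 genes 18 were above the floor, 2 were at least 2-fold higher and 3 at least 2-fold lower (0 and 5 with TMM factors), with a median of -0.26. Atf4 stood at 242 and 509 CPM (1.07, 95% interval 1.05 to 1.09) and Ddit3 (CHOP) at 13.4 and 29.9 CPM (1.15), the higher pair. With TMM factors both lay below 2-fold (0.79 and 0.87). Over the list 6 members lay above 0 and 12 below. The glutathione-degrading enzyme Chac1 was at 22.6 and 2.58 CPM (-3.13), Trib3 at 46.9 and 10.9 CPM (-2.10), the mitochondrial folate enzyme Mthfd2 at 195 and 96.8 CPM (-1.01) and the asparagine synthetase Asns at 293 and 301 CPM (0.04). Chac1 passed the floor through the control library alone. The promoters of Chac1 and Trib3 are shown as the lowest members of the list that hold the element bound by ATF4 and C/EBP partners, written TGATGNAAN, with capitals at matches on either strand. The Chac1 promoter lies at chr2:119350992-119351291 on the plus strand with the match at -194, and the Trib3 promoter at chr2:152344011-152344310 on the minus strand with the match at 13 bases after the start.
Chac1 promoter: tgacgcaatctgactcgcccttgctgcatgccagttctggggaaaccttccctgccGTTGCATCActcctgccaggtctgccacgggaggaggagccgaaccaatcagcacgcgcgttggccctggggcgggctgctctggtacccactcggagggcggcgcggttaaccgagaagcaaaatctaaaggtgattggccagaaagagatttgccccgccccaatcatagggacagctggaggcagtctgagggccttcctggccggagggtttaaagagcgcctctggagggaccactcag
Trib3 promoter: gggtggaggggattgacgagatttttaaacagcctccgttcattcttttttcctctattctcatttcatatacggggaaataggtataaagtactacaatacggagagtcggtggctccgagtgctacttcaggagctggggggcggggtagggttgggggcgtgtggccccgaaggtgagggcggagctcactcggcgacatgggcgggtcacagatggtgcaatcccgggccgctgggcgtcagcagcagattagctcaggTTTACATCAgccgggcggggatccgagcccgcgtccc
These letters were in 143 of 6044 promoters (2.37%) and in 5 of 18 listed ones (Asns, Chac1, Nupr1, Pycr1 and Trib3), of which Asns was level and Chac1 and Trib3 among the lowest. None of the 20 cytosolic aminoacyl-tRNA synthetases was past 2-fold. Their median was -0.22, with Nars lowest (-0.69) and the phenylalanine enzyme subunit Farsa highest (127 and 218 CPM, 0.78). Of 10 amino acid transporters above the floor, the leucine transporter Slc7a5 was lower (46.6 and 14.8 CPM, -1.65), its heavy chain partner Slc3a2 stood at 258 and 330.4 CPM (0.36), the glutamine transporter Slc38a2 at 103 and 51.97 CPM (-0.98) and the neutral amino acid transporter Slc43a2 at 5.88 and 19.7 CPM (1.75). Slc43a2 passed the floor through the cycloheximide library alone.

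Mat2a makes SAM, the methyl donor of the cell, and its transcript is known to carry hairpins in the 3′ UTR that METTL16 methylates and that govern splicing and stability of the RNA. It was the only one of 9 methionine and SAM cycle genes past 2-fold, at 288 CPM in the control and 36.1 CPM at 6 h. The other 8 lay between -0.16 and 0.86, Ahcyl2 being the highest (13.8 and 24.99 CPM, 0.86). The letters ACAGAGAA at the heart of these hairpins occurred 5 times in the 1494 bases of the Mat2a 3′ UTR, shown in windows of 30 bases, capitals marking the 8 letters.
Mat2a site 1: tggcgtaggttACAGAGAAgccttcaagct
Mat2a site 2: ccttgtgatatACAGAGAAgtcacagggca
Mat2a site 3: ctggtgtagctACAGAGAAaccagcttcct
Mat2a site 4: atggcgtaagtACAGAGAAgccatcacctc
Mat2a site 5: gctggtgtggtACAGAGAAgccagcttgtt
Among 7325 genes with a 3′ UTR, 583 held the letters (7.96%), 10 held them 3 or more times and none more often than Mat2a. Hnrnpr, the other gene with 5, stood at 138 and 101 CPM (-0.45).

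Other metabolic lists had 2 members or fewer past 2-fold, all of them lower. The 19 cholesterol synthesis genes above the floor had a median of -0.22. The synthase Hmgcs1 stood at 66.9 and 33.99 CPM (-0.98). Of 15 glycolysis genes (median -0.14) 13.3% were at least 2-fold lower beside 2.49% of all genes: the hexokinase Hk2 (133 and 63.9 CPM, -1.06) and the glucose transporter Slc2a1 (108 and 53.6 CPM, -1.01). Gapdh was level (0.03). By UMIs per cell the ratios of Hk2 (-0.95) and Slc2a1 (-0.90) were short of 2-fold. Of 13 NRF2 targets of the antioxidant response (median -0.47, 15.4% lower, 4 genes with TMM factors) the thioredoxin reductase Txnrd1 (180.3 and 72.99 CPM, -1.30) and the sulfiredoxin Srxn1 (18.7 and 8.10 CPM, -1.21) were lower, and the heme oxygenase Hmox1 stood at 64.3 and 115 CPM (0.84). Srxn1 passed the floor through the control alone. Of the 11 targets with 10 CPM in both libraries 1 was lower (9.09%, beside 1.78% of all genes), with a median of -0.36. Of 10 iron and metal genes (median -0.24, 20% lower) the ferritin light chain Ftl1 (214 and 71.5 CPM, -1.58) and the zinc importer Slc39a10 (-1.18) were lower, and the ferritin heavy chain Fth1 stood at 2123 and 1658 CPM (-0.36). Ftl1 has near-identical copies in the genome, so its count may depend on how reads shared with them were assigned. None of the 9 polyamine genes was past 2-fold, with a median of 0.37 between -0.69 (the spermine synthase Sms) and 0.55 (the antizyme Oaz2).

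Tubulin genes differed among themselves. Of 11 genes 3 were at least 2-fold lower: Tubb3 (65.3 and 18.6 CPM, -1.81), Tuba4a (80.4 and 25.2 CPM, -1.68) and the abundant Tubb4b (707 and 317 CPM, -1.16). Tubb5 stood at 1219 and 926 CPM (-0.40), Tuba1b was level (1004 and 1013 CPM, 0.01) and Tubb2a was highest (0.61). Of the 9 actin and SRF target genes above the floor the matricellular gene Ccn2 was higher (7.20 and 27.6 CPM, 1.94), Actb stood at 2401.6 and 2026 CPM (-0.25) and the actin crosslinker Flna at 77.1 and 39.4 CPM (-0.97). Ccn2 passed the floor through the cycloheximide library alone. Among 20 karyopherins, the carriers of nuclear transport, Kpna2 (-2.54) and the tRNA exporter Xpot (72.5 and 35.9 CPM, -1.01) were lower and the median was -0.23.

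The ERK pathway's feedback and target genes were the lowest list of all. Of 14 genes 8 were above the floor, 3 of them through the control library alone, and 6 of the 8 were at least 2-fold lower, with a median of -1.40 (-1.69 with TMM factors, -1.30 by UMIs per cell). By UMIs per cell Spred1 was short of 2-fold (-0.90), which leaves 5. Beside Spry4, Spry2 and Dusp6 these were the Sprouty-related inhibitors Spred2 (26.1 and 8.74 CPM, -1.58) and Spred1 (38.2 and 18.9 CPM, -1.01) and the ETS factor Etv5 (80.1 and 34.1 CPM, -1.23). Etv4, a second ETS factor, stood at 108 and 66.3 CPM (-0.70) and Phlda1 at 33.2 and 35.5 CPM (0.10). The 3 members that passed through the control alone were all among the lower ones, as they had to be, and of the 5 with 10 CPM in both libraries 3 were lower, with a median of -1.01. Of 13 LIF and STAT3 targets 4 were at least 2-fold lower (median -0.39): Gbx2, Socs3, the Krüppel-like factor Klf5 (358 and 165 CPM, -1.11) and the self-renewal factor Tfcp2l1 (80.4 and 38.7 CPM, -1.06). Klf4 stood at 134 and 111 CPM (-0.27), and the shared receptor chain of the pathway, Il6st (gp130), at 14.1 and 26.3 CPM (0.90).

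Of 23 immediate early genes 15 were above the floor, 3 were at least 2-fold higher and 4 at least 2-fold lower, with a median of 0.07 whose sign depends on the scaling. Higher were Klf10, Klf6 (16.9 and 58.4 CPM, 1.79) and the AP-1 subunit Jun (15.7 and 31.6 CPM, 1.01, 0.73 with TMM factors). Lower were Fos, Myc, the AP-1 subunit Fosb (25.1 and 6.95 CPM, -1.85) and the orphan nuclear receptor Nr4a1 (20.6 and 5.53 CPM, -1.90). These 4 passed the floor through the control alone, where they had to be higher. Of the 11 members with 10 CPM in both libraries 3 were higher and 0 lower, with a median of 0.54. AU-rich elements built on ATTTA mark many short-lived transcripts, and sites from 1 higher and 1 lower gene are shown because both carry 4 of them, capitals marking the 5 letters.
Klf10 3′ UTR site 1: ttgtttttgccATTTAtacttgagacc
Klf10 3′ UTR site 2: aaccctcattaATTTAattgcttggaa
Fos 3′ UTR site 1: ttgtgttttcaATTTAtttattaagat
Fos 3′ UTR site 2: gttttcaatttATTTAttaagatggat
Klf10 had a log2 ratio of 2.95 and Fos of -2.71. Over all coding genes the share at least 2-fold higher was 7.68% among 2605 genes without ATTTA in the 3′ UTR and 7.88% among 1129 genes with 6 or more, and the share at least 2-fold lower was 1.92% and 2.39%. The longer form TTATTTAWW (W being A or T) occurs once in both Klf10 and Fos. Of 1121 genes with it 8.65% were higher and 3.21% lower, beside 7.59% and 2.16% of the 6258 without it. These differences were not tested.

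Of 10 NF-kappaB subunits and inhibitors 5 were above the floor and 2 were higher, Relb and the inhibitor Nfkbia (24.9 and 110.5 CPM, 2.15, 95% interval 2.09 to 2.21), while the subunit Nfkb1 stood at 28.7 and 14.8 CPM (-0.96). Relb passed the floor through the cycloheximide library alone, and of the 4 members with 10 CPM in both libraries 1 was higher. Of 7 Id and Hes repressors 5 were above the floor and 2 were higher, Id2 and Id3 (46.1 and 185 CPM, 2.00). Id1, the most abundant, was level (242 and 254 CPM, 0.07) and Hes1, the Notch target, stood at 52.9 and 31.2 CPM (-0.76). In the Nodal and activin pathway, the ligand Nodal was higher (31.3 and 79.8 CPM, 1.35), the subunit gene Inhbb lower (-3.13), the inhibitory Smad7 lower (125 and 53.02 CPM, -1.23) and the co-receptor Tdgf1 at 364 and 313 CPM (-0.22), among 7 members above the floor with a median of -0.11. Inhbb passed the floor through the control alone. None of the 6 Wnt genes above the floor was past 2-fold, from -0.53 (Axin1) to 0.85 (the repressor Tcf7l1), with the effector Ctnnb1 at -0.43.

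Among growth control genes other than the Gadd45 family, the p53 targets had a median log2 ratio of 0.09 and the Bcl2 family one of -0.05. Both signs depend on the scaling, and the median of all genes was 0.16. Of 17 p53 targets above the floor 2 were higher, the ribonucleotide reductase subunit Rrm2b (6.65 and 15.3 CPM, 1.20) and the cyclin-dependent kinase inhibitor Cdkn1a (28.3 and 60.1 CPM, 1.08), both short of 2-fold with TMM factors (0.92 and 0.80). Rrm2b passed the floor through the cycloheximide library alone. Mdm2, the ubiquitin ligase of p53, was at 67.6 and 74.9 CPM (0.15) and Sesn2, also a target of ATF4, at 49.6 and 28.3 CPM (-0.81). None of the 9 Bcl2 family genes above the floor was past 2-fold. The short-lived survival gene Mcl1 stood at 120.0 and 184 CPM (0.62), the killer Bbc3 (Puma) at 18.7 and 31.1 CPM (0.73) and Bax at 584 and 593 CPM (0.02). Of 6 Myc network genes above the floor 2 were lower (33.3%, beside 2.49% of all genes), Myc and Mycn (29.7 and 10.8 CPM, -1.46), while their partner Max stood at 47.2 and 67.8 CPM (0.52). Myc passed the floor through the control alone. Of the 4 members with 10 CPM in both libraries 1 was lower (25%, beside 1.78% of all genes).

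DNA replication genes lay above the median of all genes by a small step. All 32 were above the floor, 28 lay above the median of all genes and 30 above 0, with a median of 0.53 (0.24 with TMM factors), and only 2 were at least 2-fold higher: the GINS subunit Gins3 (17.99 and 63.6 CPM, 1.82) and the licensing factor Cdc6 (37.4 and 76.4 CPM, 1.03, 0.75 with TMM factors). By UMIs per cell 4 were past 2-fold. The helicase subunit Mcm5 was at 288 and 444 CPM (0.62), the clamp Pcna level at 295 and 300.5 CPM (0.03) and the clamp loader Rfc3 lowest (-0.19). Mitosis genes lay on the other side. Of 33 above the floor 3 lay above the median of all genes, the median was -0.15 and 1 was at least 2-fold lower (5 with TMM factors), the kinase Plk1 (114 and 43.3 CPM, -1.40). Cyclin B1 (Ccnb1) stood at 222 and 139.7 CPM (-0.67) and the topoisomerase Top2a at 464 and 385 CPM (-0.27). Of 11 G1 regulators, Ccnd1 was lowest (119 and 76.1 CPM, -0.65) and Cdkn1a highest.

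Of 23 pluripotency regulators 0 were higher and 3 lower (13.04%, beside 2.49% of all genes), Zfp296, Klf5 and Tfcp2l1, and 6 were lower with TMM factors. By UMIs per cell 1 was higher and 2 were lower. Zfp296 passed the floor through the control alone. Of the 22 members with 10 CPM in both libraries 2 were lower, 9.09% beside 1.78% of all genes under that rule. The median was -0.15, and 19 of the 23 lay below the median of all genes. Pou5f1 (Oct4) stood at 533 and 465 CPM (-0.20), Sox2 at 213 and 146 CPM (-0.54), Nanog at 123.4 and 145 CPM (0.24) and Esrrb at 64.04 and 57.7 CPM (-0.15). Zfp42 (Rex1) was at 455 and 239.6 CPM (-0.93), Klf2 at 196 and 332 CPM (0.76) and the growth factor gene Gdf3 at 142 and 279.7 CPM (0.98). Of 7 genes of the formative and epiblast state above the floor 3 were at least 2-fold lower (median -0.61), Tcf15, Foxd3 (17.1 and 3.08 CPM, -2.47) and Pou3f1 (Oct6, 15.5 and 5.07 CPM, -1.61), the last pair passing the floor through the control alone. Of the 5 with 10 CPM in both libraries 1 was lower. Sox4 was highest there (21.3 and 42.4 CPM, 1.00). None of 17 Polycomb genes was past 2-fold (4 lower with TMM factors), from -0.98 (Kdm2b) to 0.92 (Rybp). Of 10 DNA methylation and Tet enzymes the dioxygenase Tet2 was lower (89.7 and 34.4 CPM, -1.38) and Tet1 stood at 328 and 179 CPM (-0.87).

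**Figure D4:**
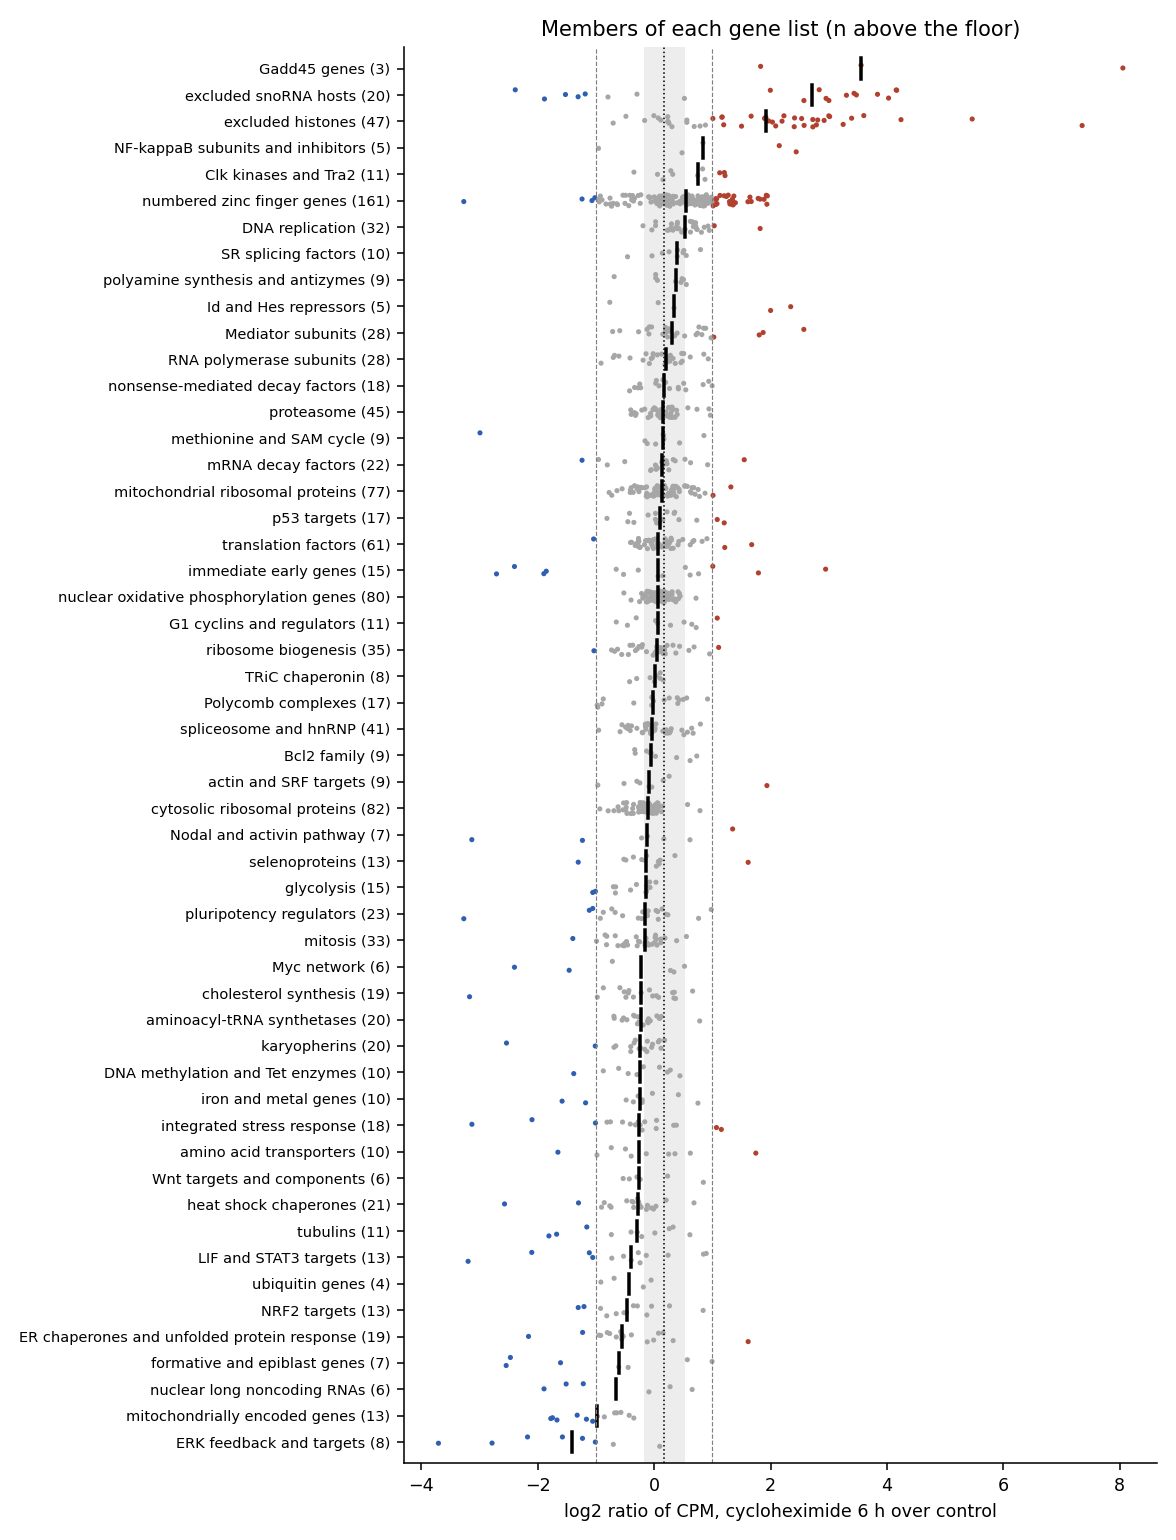
Log2 ratio of each member above the floor (points; red at least 2-fold higher, blue at least 2-fold lower) for the gene lists, with the list median as a black bar and the number of members in brackets; the grey band spans the quartiles of all 7556 genes, -0.16 to 0.52, and the dotted line their median, 0.16. ERK feedback genes have the lowest median, -1.40, and among lists other than the histones and snoRNA hosts the Gadd45 genes have the highest, 3.56.

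RNA-processing genes known for switching to unproductive splice forms were among the higher groups. Of 11 genes for Clk kinases, Tra2 and related regulators 3 were at least 2-fold higher and the median was 0.75 (0.47 with TMM factors): the kinases Clk1 (50.2 and 117 CPM, 1.22) and Clk4 (20.4 and 44.5 CPM, 1.13), which phosphorylate SR proteins, and Luc7l (116 and 268 CPM, 1.21). All 3 lay just below 2-fold with TMM factors. Tra2b stood at 229 and 407 CPM (0.83). The 10 SR splicing factors above the floor had a median of 0.40 and none past 2-fold, from -0.46 (Srsf5) to 0.80 (Srsf11). 3′ counts do not tell splice forms apart. Of 18 nonsense-mediated decay factors none was past 2-fold (median 0.17, sign depending on the scaling), with Upf2 highest at 36.9 and 73.6 CPM (1.00). Of 22 other mRNA decay factors the deadenylase-binding Btg3 was higher (36.9 and 108 CPM, 1.55) and the AU-rich element binder Zfp36l1 lower (81.6 and 34.6 CPM, -1.24). Of 41 spliceosome and hnRNP genes none was past 2-fold, with Hnrnpu lowest (804 and 415 CPM, -0.95). Of 13 selenoproteins Selenos was higher, Txnrd1 lower and the abundant Gpx4 level (0.09). Of 6 nuclear long noncoding RNAs above the floor 3 were at least 2-fold lower, the paraspeckle scaffold Neat1 (41.8 and 11.3 CPM, -1.89) and the imprinted neighbours Rian (85.3 and 29.9 CPM, -1.51) and Meg3 (238 and 102 CPM, -1.22).

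Lists of the translation apparatus itself had 3 members or fewer past 2-fold. None of 82 cytosolic ribosomal protein genes above the floor was past 2-fold. Their median was -0.11, 80 of the 82 lay below the median of all genes, and their sum was 268571 CPM in the control and 241009 CPM at 6 h. Many of these genes have near-identical pseudogenes, so single values among them are uncertain, Rpl29 being the lowest (-0.93) and the paralog Rpl7l1 the highest (0.79). The 77 mitochondrial ribosomal protein genes had a median of 0.13 with Mrpl9 (40.1 and 100.1 CPM, 1.32) and Mrps31 (1.01, 0.73 with TMM factors) higher. Of 61 translation factors Eif4a2 and Eif1b (55.5 and 129 CPM, 1.21, 0.93 with TMM factors) were higher and the scaffold Eif4g1 lower (272 and 132 CPM, -1.04, -0.93 by UMIs per cell), with the elongation factor Eef1a1 at 5810.1 and 4842 CPM (-0.26). Of 35 ribosome biogenesis genes Tsr1 was higher (1.11, 0.83 with TMM factors) and the nucleolar GTPase Gnl3 lower (349 and 171 CPM, -1.03, -0.93 by UMIs per cell). None of 45 proteasome genes was past 2-fold (median 0.16).

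The mitochondrially encoded and the nuclear genes of oxidative phosphorylation differed in their counts past 2-fold. All 13 mitochondrial mRNAs lay below 0 and 6 were at least 2-fold lower (8 with TMM factors, 5 by UMIs per cell, median -0.97), against 0 of 80 nuclear genes (median 0.07, sign depending on the scaling). The members ran from mt-Nd6 (45.1 and 13.2 CPM, -1.78) and mt-Atp8 (394 and 117 CPM, -1.75), over mt-Nd1 (3133 and 1253 CPM, -1.32), to mt-Atp6 (9726 and 6548 CPM, -0.57) and mt-Co3 (7060.5 and 5543 CPM, -0.35). The cell rule used the mitochondrial share: without its lower limit, which kept back 62 control barcodes and 8 at 6 h, the list's median was -0.90. The difference between the 2 groups of genes was not tested.

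In transcription, 4 of 28 Mediator subunits above the floor were at least 2-fold higher and none lower: Med22, Med7 (52.7 and 193 CPM, 1.87), Med20 (13.7 and 47.8 CPM, 1.81) and Med27 (1.02, 0.74 with TMM factors). The lowest was Med1 (43.6 and 26.6 CPM, -0.71), and the list's median was 0.31. None of 28 RNA polymerase subunits was past 2-fold, from -0.91 (Polr3g) to 0.93 (Polr2d). Of 399 numbered zinc finger genes in the files 161 were above the floor, 42 of them through 1 library alone, and 30 were at least 2-fold higher against 4 lower, 18.6% and 2.48% beside 8.46% and 2.49% of all genes. With TMM factors 20 were higher and 12 lower, beside 4.58% and 5.29% of all genes. Of the 30 higher members 15 passed the floor through the cycloheximide library alone. Among the 119 with 10 CPM in both libraries 15 were higher and 2 lower, a higher share of 12.6% beside 5.97% of all genes under that rule. Zfp534 stood at 30.4 and 117 CPM (1.95), Zfp988 at 31.4 and 111 CPM (1.82) and Zfp990 at 162 and 355 CPM (1.13). These 3 lie on chromosome 4 among near-identical copies, so reads could be split between them. Zfp105 (12.97 and 44.8 CPM, 1.79), Zfp346 (6.90 and 26.3 CPM, 1.93) and Zfp688 (12.8 and 40.2 CPM, 1.65) lie elsewhere.

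Coding length and exon number were weakly related to the ratio. Over 7379 coding genes, histones and mitochondrial genes left out, Spearman's rho with the log2 ratio was -0.17 for coding length, -0.18 for the number of exons, -0.12 for gene length and -0.11 for the mean level, against 0.00 for the 3′ UTR length and -0.05 for the GC content of the coding sequence. All genes share these 2 libraries and are not independent, and the features are related to each other, so no test is given. Ranked into 5 equal bins by exon number, 12.1% of genes were at least 2-fold higher in the bin with the fewest exons and 3.12% in the bin with the most. For coding length the share lower ran the other way, from 0.813% in the bin of the shortest to 4.13% in the bin of the longest. Genes of 2 exons were past 2-fold most often, 15.4% of 247 higher and 6.07% lower. Coding genes that carry a snoRNA within their span resembled the noncoding hosts in a few cases only. Of 186 such genes 5 were higher and 5 lower, 2.69% each, beside 7.88% and 2.31% of the 7193 others. Eif4a2, Taf1d and Tsr1 were among the higher ones. Hspa8, the lowest of the 186 (-2.57), Eif4g1 (-1.04) and Gnl3 (-1.03) were among the lower ones. The median of the 186 was 0.01 beside 0.16 for the others.

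**Figure D5:**
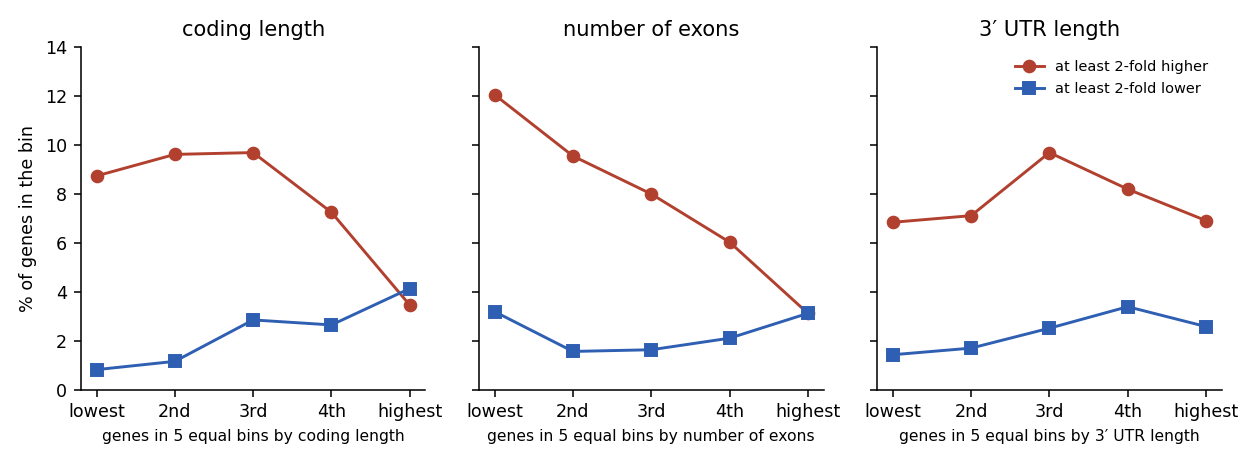
Share of coding genes at least 2-fold higher (red circles) and at least 2-fold lower (blue squares) at 6 h, in % (vertical), by 5 equal bins of genes ranked on coding length, number of exons and 3′ UTR length (horizontal). The higher share runs from 12.1% to 3.12% over the bins of exon number, while over 3′ UTR length it ends where it began, 6.84% and 6.91%.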

How the data were processed

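Counts of UMIs per gene and barcode were taken as the authors deposited them, in unfiltered matrices of 32285 genes with feature and barcode lists. The submitters' processing notes name Cell Ranger 4.0.0 and mm10; the annotation they used is not given in the sources used here. Each group is 1 library, so no test was run and no replicate could be compared. Barcodes with at least 15000 UMIs and 1 to 20% mitochondrial UMIs were summed, scaled to CPM and compared as log2 ratios with a prior of 0.5 counts, for every gene whose mean level reached 10 CPM. Ratio intervals are exact conditional binomial and level intervals exact Poisson, at 95%. They cover counting error only, since UMIs of 1 cell are not independent cultures. No doublet caller was run; sums without barcodes above 2 times the median UMIs of their library were an alternative. TMM factors came from edgeR 4.0.16 in R 4.3.3, the rest from Python 3.11.15 with numpy 2.4.6, scipy 1.17.1 and pandas 2.3.3. The sums and ratios were checked on simulated data. GENCODE M21 (GRCm38) gave positions and transcript features for 32158 gene IDs, and RefSeq the promoters.

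Named genes are the 15 highest and 15 lowest ratios above a mean of 20 CPM and the 10 largest gains and losses in CPM (histones, snoRNA hosts, unnamed and mitochondrially encoded genes left out), each list's highest, lowest, most abundant and 2-fold members, and genes with a printed sequence. Genes outside this rule were chosen after their values were seen: Pou5f1, Sox2, Nanog, Esrrb, Klf4, Hspd1, Hsp90aa1, Hyou1, Asns, Slc38a2, Hmgcs1, Tuba1b, Mcl1, Mdm2, Pcna, Ccnb1 and Hnrnpr in the report, and those of the other observations. Some genes that this rule names are not reported here. The comparison and all lists were chosen with earlier results of these data known.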

Additional observations from a re-analysis of the deposited data

Results flagged for a closer look

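The library exposed for 3 h shares the control used here and differs from it in duration, so the values are set side by side without a test. The entries below lay on opposite sides of the control at 3 h and 6 h. For genes ranked by ratio or CPM this required intervals that exclude equality at both times, and for list medians a distance of at least 0.1 from 0. A first limit of 1.5-fold at both times had left no entry, and the wider limit was chosen after that was seen. Dusp6, the phosphatase of ERK, had 36.6 CPM without cycloheximide, 39.5 CPM after 3 h and 8.11 CPM after 6 h of it, log2 ratios to the control of 0.11 and -2.18. The median of the LIF and STAT3 targets was 0.32 at 3 h and -0.39 at 6 h, and that of the pluripotency regulators 0.32 and -0.15. The median of the Nodal and activin pathway genes was 0.22 and -0.11, and that of the 8 embryonic stem cell markers 0.30 and -0.21. These lists overlap, so their medians are not separate observations. Klf5 and Tfcp2l1 are both LIF and STAT3 targets and pluripotency regulators. Pou5f1, Sox2, Nanog and Esrrb, described above with the regulators, are also among the 8 markers. No other scaling was computed for the 3 h library, so the 3 h medians and their signs are known by CPM only. In the 6 h comparison TMM factors lower every log2 ratio by 0.28, about the size of these 3 h medians. The Nodal pathway median at 6 h was -0.40 with TMM factors and -0.01 by UMIs per cell. The difference between 3 h and 6 h was not tested.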

How the results depend on the processing

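No paired analysis was possible because each group has 1 library, and for the same reason no replicate could be left out. The count of genes at least 2-fold higher was 639 and the count at least 2-fold lower 188, with a median log2 ratio of 0.16. TMM factors gave 346, 400 and -0.12, so this scaling turns the sign of the median. By mean UMIs per cell the median was 0.27, and without the lower mitochondrial limit 0.18. A floor of 50 CPM left 2914 genes with 158 higher, 46 lower and a median of 0.098, and a floor of 1 CPM 12273 genes with 1686, 375 and 0.22. A threshold of 1.5-fold gave 1641 and 603. With 10 CPM in both libraries, chosen after seeing the data, 414 were higher, 123 lower and the median was 0.14. Under the other alternatives the counts were within 1.5 times of these, from 636 to 826 higher and from 145 to 195 lower. Of 279 genes named by the rule or after their values were seen, 151 were past 2-fold. None of these changed sign under an alternative, which says little. They were picked as past 2-fold, and the largest shift of a named gene was 0.40 on the log2 scale. TMM factors kept 128 and added 19, mean UMIs per cell kept 140 and added 8, and thinning each cell kept 135 of the 149 then above the floor. Of 53 list medians TMM factors turned the sign of 13 and mean UMIs per cell of 4. The floor moved single medians further, since it sets which members count: by up to 1.66 with 50 CPM and 0.83 with 1 CPM, both for the Id and Hes repressors, with 5 signs turned by each. With 50 CPM the medians of the NF-kappaB and of the Id and Hes lists went past 2-fold and that of the histones fell short of it. With 1 CPM those of the Id and Hes repressors and the nuclear long noncoding RNAs went past 2-fold. With 10 CPM in both libraries the medians of the Nodal pathway (0.03) and the Myc network (0.31) turned sign and that of the histones fell short of 2-fold. Thinning moved medians by up to 0.56, for the Myc network, and turned 2 signs. Depth limits low genes: Gadd45g had 122 UMIs in the control.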

Other observations

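These genes were chosen after their values were seen and belong to none of the lists. The arrestin-domain genes Arrdc3 and Arrdc4, paralogs of Txnip, were both higher in the cycloheximide library. Arrdc3 stood at 13.8 CPM in the control and 65.3 CPM at 6 h (log2 ratio 2.24, 95% interval 2.17 to 2.32) and Arrdc4 at 44.6 and 206 CPM (2.21, 95% interval 2.17 to 2.25). Single genes with other roles are given by their values, with no count of genes of like function. Trmt12, an enzyme of wybutosine synthesis in tRNA, stood at 6.31 and 22.3 CPM (1.82) and Osgepl1, which modifies mitochondrial tRNAs, at 9.67 and 42.9 CPM (2.15). The adhesion molecule Icam1 was at 36.8 and 136 CPM (1.88) and the adaptor Traf2 at 6.94 and 27.3 CPM (1.98). Klf11, a paralog of Klf10, was at 4.79 and 17.6 CPM (1.88), and the developmental factors Sall3 and Sox21 had log2 ratios of 1.96 and 2.37. Trmt12, Osgepl1, Traf2, Klf11 and Sox21 passed the floor through the cycloheximide library alone.

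On the lower side, the cytolinker Plec stood at 67.8 and 19.1 CPM (-1.83), Ahnak at 51.1 and 16.8 CPM (-1.60), and the golgins Golgb1 and Golga3 at 84.2 and 22.6 CPM in the control and 33.5 and 9.86 CPM at 6 h (-1.33 and -1.20). The membrane linker Msn was at 38.1 and 11.5 CPM (-1.73) and the intermediate filament gene Vim at 181 and 78.3 CPM (-1.20). Plaur, the urokinase receptor, was at 23.5 and 3.67 CPM (-2.68), Notch1 at 15.5 and 6.11 CPM (-1.34) and the Wnt receptor Fzd5 at 42.9 and 12.9 CPM (-1.73). Golga3, Plaur and Notch1 passed the floor through the control alone. All the genes of this paragraph lay past 2-fold on the same side with TMM factors and by UMIs per cell.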
